A study of Mus musculus with 12 samples.

Results

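The gene described here is Scamp2, which encodes secretory carrier membrane protein 2. It was followed through 1 cDNA clone, H3142G07, of the 15600 clones on the NIA Mouse 15K array, in the kidney medulla of aquaporin-1 knockout and wild type mice. The clone was chosen on its measured values, because all 3 knockout mice had lower estimates than all 3 wild type mice and because the knockout gave the lower signal in both dye orientations. Its genotype difference and everything computed from the same contrast are therefore given as a description with no test. The annotation table (RefSeq, mouse assembly GRCm38.p6) and the array layout both place Scamp2 on chromosome 9.

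RNA from adult kidney medulla, which the sample labels call inner medulla, was taken from 3 wild type mice (WT1, WT2 and WT3) and 3 aquaporin-1 knockout mice (KO1, KO2 and KO3). Each of 12 arrays carried 1 mouse in the green channel and another in the red channel, in an interwoven loop that gave every mouse 4 arrays, 2 in each dye. On 6 arrays a knockout mouse was set directly against a wild type mouse, and on the other 6 both mice had the same genotype. The sources used here give no strain, sex, exact age or treatment for either genotype. They also name no other allele and give no detail of how the knockout was made. RNA came from tissue and not from separated cells, so fewer cells of a type and less RNA per cell cannot be told apart.

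Secretory carrier membrane proteins are integral membrane proteins of the vesicles that shuttle between the trans-Golgi network, the endosomes and the cell surface. Scamp2 is known for a part in regulated exocytosis, late in the fusion of vesicles with the plasma membrane, and in the recycling of membrane proteins. Aquaporin-1 is the water channel of the proximal tubule, the thin descending limb and the descending vasa recta, and mice without it cannot concentrate their urine normally, because the medullary interstitium does not become as hypertonic as in wild type animals.

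Each deposited value is the difference between the green and the red channel of 1 array on a log2 scale. It is a true log2 ratio only where both channels lie above the point at which the transformation changes from linear to logarithmic. No intensity accompanies the values used here. The side of that point on which Scamp2 lay on each array is therefore not known, and these ratios do not give its absolute level in the medulla. The study's own plots of single genes include Scamp2, and its manual limits them to clones with enough confident measures. Scamp2 thus passed the study's filter on signal over background in at least 1 mouse. Over all clones the SD of an array ran from 0.40 to 0.90, and the 4 arrays that carried KO3 had the 4 widest spreads (at least 0.65, against at most 0.61 for the others). Array medians lay between -0.05 and 0.04. No clone in the part of the layout held here is named for Aqp1 or for any of the 10 medullary tubule markers listed, so neither the deletion nor the tissue could be checked against its defining genes.

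On the 3 direct arrays with the knockout mouse in red, Scamp2 was lower in the knockout mouse each time. The knockout minus wild type value was -0.50 for KO1 against WT2, -0.95 for KO1 against WT3 and -0.56 for KO2 against WT3. Their mean was -0.67 (SD 0.24, n = 3 arrays), and WT3 or KO1, the mice with the highest and the lowest estimate, took part in all 3 of these arrays. With the knockout mouse in green the values were -0.65 for KO3 against WT1, -0.12 for KO3 against WT2 and -0.003 for KO2 against WT1, with a mean of -0.25 (SD 0.34, n = 3 arrays). All 6 values were thus below 0, but the smallest, KO2 against WT1, was at 0 within the spread of the arrays. The knockout was below the wild type on all 6 direct arrays for 4.65% of all clones.

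**Figure D1:**
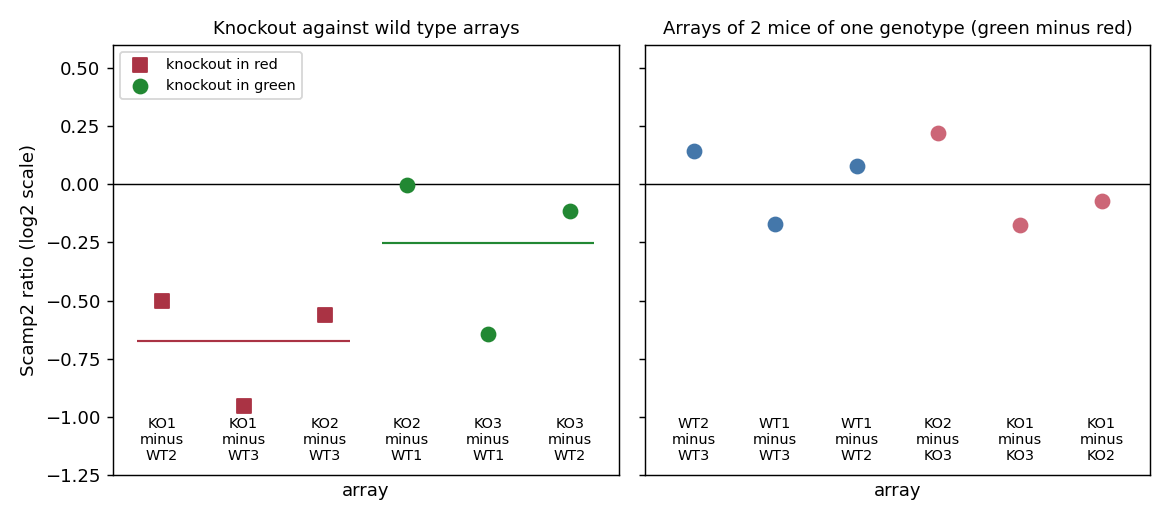
Scamp2 (H3142G07) ratio on each of the 12 arrays on the log2 scale. Left, knockout minus wild type on the 6 direct arrays by dye orientation, with the mean of each orientation as a line (-0.67 with the knockout in red, -0.25 in green); right, green minus red on the 6 arrays with mice of 1 genotype (blue wild type, pink knockout), which lie between -0.18 and 0.22.

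The arrays that paired mice of the same genotype give the size of ratio seen without a genotype difference. For Scamp2 the green minus red value was -0.17 for WT1 against WT3, 0.08 for WT1 against WT2 and 0.14 for WT2 against WT3. Among the knockout mice it was 0.22 for KO2 against KO3, -0.18 for KO1 against KO3 and -0.07 for KO1 against KO2. The median size of these 6 ratios was 0.159, against 0.533 for the 6 direct arrays. Of the direct arrays, 4 had a larger ratio than any same-genotype array, and the remaining 2 (KO3 against WT2, and KO2 against WT1) lay within the same-genotype range. The clone was chosen for genotypes that separate, so larger ratios on the direct arrays follow largely from the choice and are no further result. The share of all clones with such a pattern was not computed.

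The 12 ratios of the clone were modelled by the 6 mice and the dye, and each mouse was expressed relative to the mean of all 6. In the wild type mice, Scamp2 was 0.19 in WT1, 0.15 in WT2 and 0.36 in WT3. In the knockout mice it was -0.38 in KO1, -0.08 in KO2 and -0.23 in KO3. Every estimate had a standard error of 0.095. WT3 was the highest mouse and KO1 the lowest, and the 2 genotypes did not overlap. The lowest wild type mouse, WT2, was 0.24 above the highest knockout mouse, KO2. All 3 knockout mice lay below all 3 wild type mice for 8.86% of all clones, and for 3.05% this held together with 6 direct arrays below 0.

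**Figure D2:**
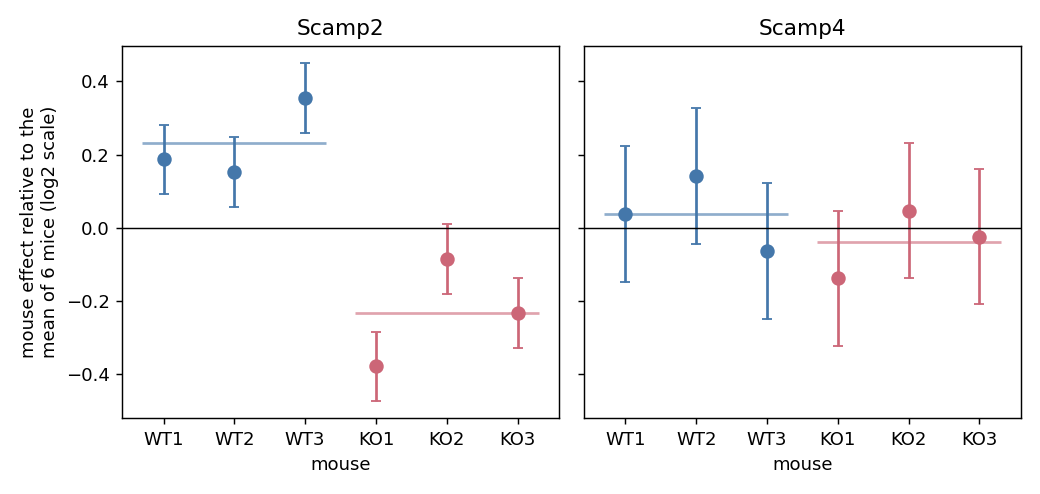
Estimated level of each mouse for Scamp2 (left) and Scamp4 (right), relative to the mean of the 6 mice on the log2 scale. Points are estimates from 4 arrays per mouse, bars are 1 standard error, and horizontal lines are the mean of each genotype (0.23 and -0.23 for Scamp2, 0.04 and -0.04 for Scamp4).

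The mean of the wild type mice was 0.23 (SD 0.11, n = 3) and that of the knockout mice -0.23 (SD 0.15, n = 3). The Scamp2 difference, knockout minus wild type, was -0.46 with a standard error over mice of 0.11. On the logarithmic part of the scale this corresponds to a knockout signal at 72.5% of the wild type signal, or 27.5% lower. The difference equals the mean of the 6 direct arrays, since in this loop the same-genotype arrays carry no information on the genotype contrast and bear only on the single mice.

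Taken in order from low to high, the mice were KO1, KO3, KO2, WT2, WT1 and WT3. No pair of neighbours in this order differed by more than 2 standard errors of their difference. The step from KO2 to WT2, where the genotypes meet, was 0.24 with a standard error of 0.16, for a pair that shared no array. The other steps were 0.15 from KO1 to KO3, 0.15 from KO3 to KO2, 0.03 from WT2 to WT1 and 0.17 from WT1 to WT3, each with a standard error of 0.14. These standard errors hold the error of the arrays alone and not the spread between mice of 1 genotype.

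Both dyes gave lower values for the knockout on the direct arrays, but the size differed by 0.42 between the orientations. The orientations used different pairs of mice, so mice and dye cannot be told apart in that difference. In the model, where mice are separated from dye, Scamp2 was 0.11 higher in green than in red (standard error 0.08), which did not pass the limma test (unadjusted p = 0.201, adjusted p = 0.435 over all clones). Of all clones, 0.34% had a dye effect at an adjusted p under 0.05. The plain average of each mouse's 2 arrays in red, set against whichever mice were its partners, was 0.32, 0.02 and 0.01 for WT1, WT2 and WT3 and -0.73, -0.24 and -0.02 for KO1, KO2 and KO3, with no overlap. The same average in green was -0.05, 0.32 and 0.76 for the wild type mice and -0.12, 0.11 and -0.38 for the knockout mice. There KO2 lay above WT1, whose 2 green arrays were both set against other wild type mice. The red averages were unbalanced as well, since WT1 in red met only knockout mice and KO1 in red only wild type mice. WT3 and KO3, which lay closest across the genotypes in red (0.01 and -0.02), met only mice of their own genotype there. Averaged over all 4 arrays with no model, the wild type mice were at 0.14, 0.17 and 0.39 and the knockout mice at -0.43, -0.07 and -0.20, again with no overlap.

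The repeat measurements of Scamp2 were closer to each other than for most clones. Its residual SD after the fit was 0.22, with 6 residual degrees of freedom, against a median of 0.37 over all clones, and 19.7% of clones had a lower one. The residuals ran from -0.33, on the array of KO3 in green against WT1, to 0.24, on the array of WT2 in green against WT3. Within the genotypes the mice spanned 0.20 in the wild type and 0.29 in the knockout.

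Among all 15600 clones, the Scamp2 difference was the 1136th lowest, so 7.28% of clones had a lower one. By absolute size it ranked 1574th, with 10.1% of clones larger in either direction. The 5th percentile of all genotype differences was -0.56 and the 95th was 0.37, with a median of 0.00, and Scamp2 lay inside these limits. Its place was nearer the extreme once the spread between mice was taken into account. The absolute difference over its moderated standard error (0.12) ranked 302nd, with 1.93% of clones larger in either direction. The gap of 0.24 between the genotypes, taken in the lower direction only, ranked 306th of the 1382 clones whose knockout mice were all below the wild type mice. The median gap of those clones was 0.103. The paper compared mice only on clones with enough signal over background. No such filter was applied to the 15600 clones, so the ranks, medians and shares over all clones given here include clones that it left out. They are not places among confidently measured genes.

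**Figure D3:**
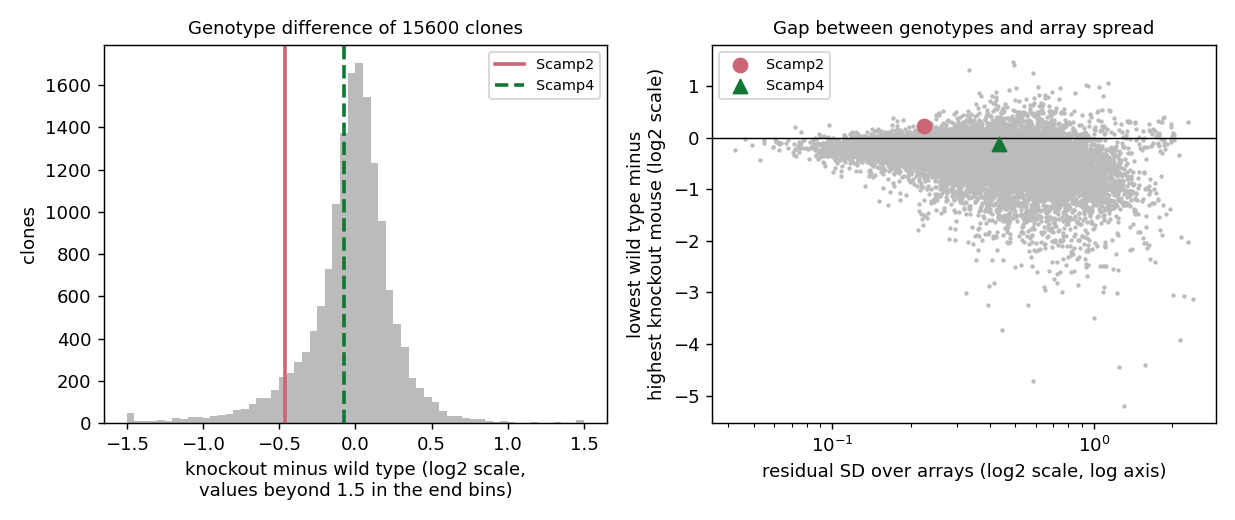
Left, histogram of the knockout minus wild type difference (log2 scale) of all 15600 clones with Scamp2 at -0.46 (solid line) and Scamp4 at -0.08 (dashed line). Right, lowest wild type minus highest knockout mouse against the residual SD over arrays (log axis), 1 point per clone; values above 0 are clones with all knockout mice below all wild type mice, and Scamp2 sits at 0.24 with a residual SD of 0.22.

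The clones ranked just before and just after Scamp2 show how differently a difference of -0.46 could be made up. H3021A06, ranked 1135th, had a residual SD of 0.54, overlapping genotypes, and the knockout lower on 5 of the 6 direct arrays. H3017C11, ranked 1137th, had a residual SD of 0.77, overlapping genotypes and the knockout lower on 4 of 6. Neither is described in the part of the layout held here.

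As the background for these ranks, limma was applied to the mouse estimates of every clone, 3 knockout against 3 wild type. No clone reached an adjusted p under 0.05 (0 of 15600, 0%), with 0.213 as the lowest value found. Before adjustment, 1486 clones (9.53%) had p under 0.05, which divide into 1022 (6.55%) lower in the knockout and 464 (2.97%) higher. The lower clones made up 68.8% of these calls, 61.1% with each array centred on its median, 58.9% without KO3 and 83.3% of 1184 with the direct arrays alone. The last setting had another test. In it limma compared 3 knockout values with 0, each value the mean of a knockout mouse's ratios to wild type mice. Wild type mice were shared between these values, so the values are not independent and the 83.3% is not like for like. With 3 mice against 3, the smallest 2-sided p of an exact permutation test of a single clone would be 0.1.

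Of the 5 genes of the SCAMP family, Scamp2 and Scamp4 have a named clone. Scamp4, a shorter family member without the long amino-terminal region of Scamp2, was represented by H3015G07, a gene on chromosome 10. In the wild type mice it was 0.04, 0.14 and -0.06, and in the knockout mice -0.14, 0.05 and -0.02, so that the genotypes overlapped. The knockout minus wild type difference was -0.08 (standard error 0.11), which did not pass the limma test (unadjusted p = 0.499, adjusted p = 0.872). On the direct arrays Scamp4 ran from -0.60 to 0.43, with 3 of 6 values below 0. Its residual SD of 0.44 was larger than that of Scamp2, and its difference was above 0 when KO1 (0.03), KO3 (0.17), or either of the arrays of WT3 against KO1 (0.05) and KO3 against WT1 (0.07) was left out. Whether the Scamp2 and Scamp4 differences themselves differ was not tested. Over the 12 arrays their ratios correlated at r = 0.448, as a description of arrays that share 6 mice.

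Other genes of vesicle and membrane traffic were taken from a list of 163 symbols, of which 10 genes have 11 named clones. Of these clones, 5 were lower and 6 higher in the knockout. In limma 0 passed an unadjusted p of 0.05, beside 9.53% of all clones, and 0 the adjusted one, beside 0% of all clones. Genotypes that did not overlap were found in 0 of them in either direction (8.86% of all clones lower, 6.88% higher). With so few clones, these counts do not set the list apart from all clones. The median difference was 0.01, beside 0.00 over all clones, and it was -0.14 without WT2 and -0.11 without KO1. Vps26a, a subunit of the retromer that returns cargo from endosomes to the Golgi, was measured by H3138G07 (-0.19) and H3085H07 (0.01). Vps33a and Vps41, of the tethering complexes of the late endosome and lysosome, were at -0.14 and 0.10, and Vps45, a regulator of SNARE proteins on endosomes, at 0.13. Eps15, an adaptor of clathrin-mediated endocytosis, was at -0.07 and a clone similar to Tgoln2, a resident of the trans-Golgi network, at 0.02.

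The remaining members had a membrane or lipid role. Anxa7, an annexin that binds membranes in the presence of calcium, was at -0.11, the lipid-transfer protein Sec14l2 at 0.15, and Fcgrt, the receptor that recycles immunoglobulin and albumin, at 0.20. Cd63, a tetraspanin of late endosomes and secretory vesicles, had the largest difference of the list, -0.83 (standard error 0.43, unadjusted p = 0.0969, adjusted p = 0.605 in limma). In the wild type mice Cd63 was -0.13, 0.93 and 0.44, and in the knockout mice 0.29, -0.31 and -1.22, so KO1 lay above WT1 and the low mean rested mostly on KO3. Its residual SD was 1.09, against 0.22 for Scamp2. Cd63 was the 1 clone of the list that passed an unadjusted p of 0.05 under other settings, among them without the array of WT1 against WT2 and without the array of KO1 against KO3.

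**Figure D4:**
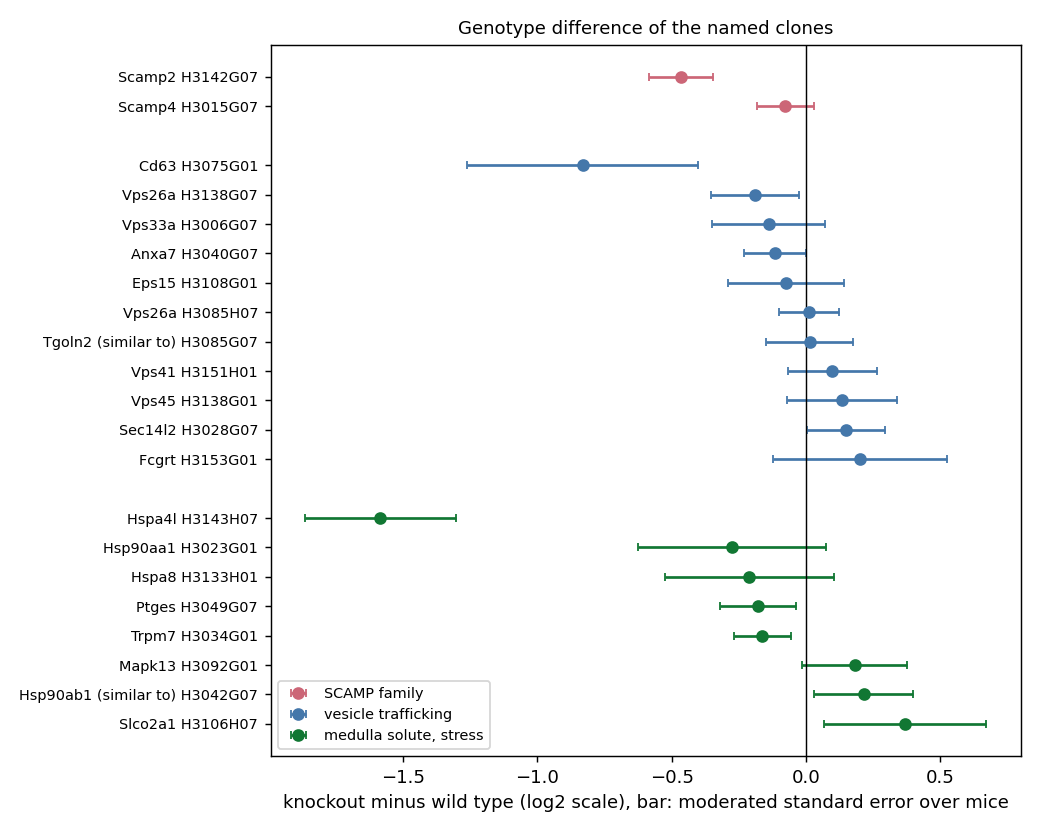
Knockout minus wild type difference (log2 scale) of the SCAMP, vesicle trafficking and medullary solute clones, with bars for 1 moderated standard error over mice (3 against 3). Scamp2, chosen on this contrast and not tested, stands at -0.46, the 11 trafficking clones run from -0.83 to 0.20, and Hspa4l stands lowest at -1.59.

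Aquaporin-1 deficiency is known to disturb the solute gradient of the medulla, so genes tied to osmotic and heat stress and to medullary solutes were set beside Scamp2. A list of 46 symbols gave 8 clones of 8 genes, of which 5 were lower and 3 higher in the knockout, with a median of -0.17. The median was -0.02 without WT1 and -0.02 without KO3. In limma 1 of the 8 passed an unadjusted p of 0.05, beside 9.53% of all clones, and 0 the adjusted one. In 2 of the 8 all knockout mice lay below all wild type mice, beside 8.86% of all clones. The clone that passed was H3143H07 of Hspa4l, also called Osp94, a chaperone of the heat shock family known to respond to osmotic stress in the medulla. Hspa4l was 0.91, 1.22 and 0.25 in the wild type mice and -0.57, -1.17 and -0.63 in the knockout mice. Its genotypes did not overlap and its 6 direct arrays were all below 0, from -2.24 to -0.64. The difference was -1.59 (standard error 0.28, unadjusted p = 0.00102, adjusted p = 0.281 in limma), a larger difference than that of Scamp2 with a larger residual SD, 0.65.

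The order of the mice was not the same in Hspa4l as in Scamp2. WT2 was the highest and KO2 the lowest mouse for Hspa4l, whereas for Scamp2 WT2 was the lowest of the wild type mice and KO2 the highest of the knockout mice. Trpm7, a cation channel with a kinase domain, was the other clone of the list with separate genotypes, at -0.16. Hsp90aa1 and Hspa8, cytosolic chaperones, were at -0.28 and -0.21. Ptges, a prostaglandin E synthase, was at -0.18, the stress-activated kinase Mapk13 at 0.18, a clone similar to the chaperone Hsp90ab1 at 0.22, and Slco2a1, a prostaglandin transporter, at 0.37.

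Markers of other cells could be followed in 5 clones of 4 genes among the 21 symbols listed. Lgals3, found in macrophages and in collecting duct, was at -0.14, Vim, of mesenchymal cells, at 0.01, and Ighm, of B cells, at 0.07. Hba-x, an embryonic globin whose clones stand here for blood, was at 0.33 and 0.36. None of the 5 passed an unadjusted p of 0.05 in limma (9.53% of all clones) or had genotypes that did not overlap (8.86% of all clones lower, 6.88% higher), and the lowest adjusted p was 0.85. No clone is named for the proximal tubule or endothelial markers, and the part of cell composition in the Scamp2 values was not tested. Among all 335 other clones that the layout describes, 45 had all knockout mice below all wild type mice and 10 had them all above. Over all clones these shares were 8.86% and 6.88%. At an unadjusted p under 0.05 in limma, 33 were lower and 5 higher, beside 6.55% and 2.97% of all clones. Their median difference was -0.03. The described clones, from which every list here was taken, thus leaned more to lower values in the knockout than all clones did.

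The clones whose ratios resembled those of Scamp2 most over the 12 arrays were H3156B09 (Pearson r = 0.868), Z3002C06 (0.867), H3019G02 (0.864), H3051F10 (0.862) and H3036A04 (0.857). None of them has a name here. Of 15599 clones compared, 26 had a correlation over 0.8, and because all clones share the same 12 arrays and 6 mice these values describe likeness of pattern in these animals. The knockout mice were all below the wild type mice in each of the 5, beside 8.86% of all clones, with differences from -0.97 for H3036A04 to -0.17 for H3019G02. The 5 were picked for likeness to a clone chosen for this separation, so it follows largely from the choice and is no further result. H3156B09 came closest to Scamp2 in size as well, with a difference of -0.46, but the highest wild type mouse there was WT1 (0.32) rather than WT3.

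Among the 246 other clones with a gene symbol, the closest were Gatd3a (H3139H01, r = 0.812), a mitochondrial protein, Aif1l (H3058G01, r = 0.807), an actin-binding protein, and Mad2l2 (H3152G07, r = 0.749), a subunit of the DNA polymerase that copies past lesions. Their differences were -0.67 for Gatd3a, -0.79 for Aif1l and -0.47 for Mad2l2, a direction that again follows largely from the choice by likeness. Gatd3a and Aif1l had their lowest mouse in KO3, at -0.57 and -0.61, and Mad2l2 in KO2, at -0.27, whereas Scamp2 was lowest in KO1. Mad2l2 thus had nearly the same difference as Scamp2 with another order of the mice.

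The Scamp2 values were recomputed with each mouse and each array left out. The difference ran from -0.59 without WT2 to -0.34 without WT3, and from -0.52 to -0.35 when single arrays were left out. Without KO3, whose arrays had the widest spread, it was -0.38. The clone was chosen for this direction, so the sign of these values is no sign of stability. The gap between the genotypes, 0.24 with all arrays, was 0.12 without WT3, 0.13 without KO3, 0.12 without the array of WT2 against WT3 and 0.13 without the array of KO3 against WT1, and it widened to 0.38 without KO2.

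**Figure D5:**
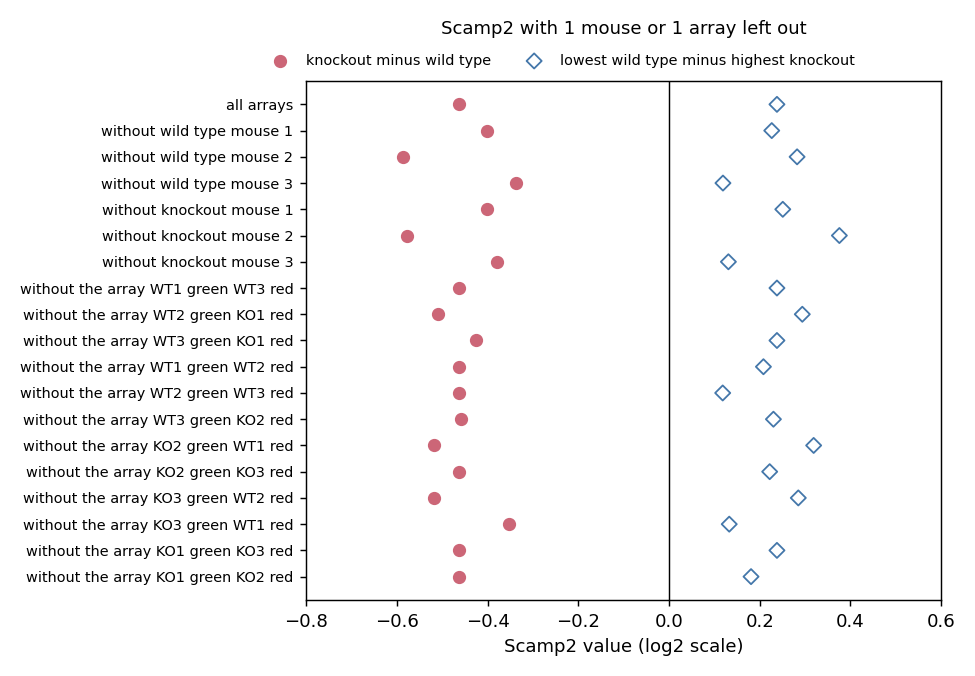
Scamp2 difference between the genotypes (filled circles) and gap between the lowest wild type and the highest knockout mouse (open diamonds), on the log2 scale, with all arrays and with 1 mouse or 1 array left out. Every difference lies between -0.59 and -0.34 and every gap between 0.12 and 0.38.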

How the data were processed

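The authors re-extracted the array images (spot mean minus local background median in each channel), applied the linlog transformation, normalized by lowess on intensity and position in CARMA and averaged duplicate spots; the deposited values, on a log2 scale, are channel 1 (green) minus channel 2 (red) for 15600 clones with 0 missing values. Images, not reads, were measured, so no depth applies; the number of arrays limits precision. Genome build was not given in the sources used here. Whether the 3 mice of a genotype were litter mates is not given.

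Each clone's ratios were fitted in R 4.3.3 (least squares, dye and mice as terms). Genotypes were compared with limma 3.58.1 on the 6 mouse estimates (3 against 3), and the dye term with limma on the 12 arrays. Each had Benjamini-Hochberg adjustment over all clones and a threshold of 0.05. The procedure was also run on simulated data with array noise and no spread between mice. That run checks the code and not the error rate of the genotype comparison in these mice. Scamp2 was given no genotype test. The clone, the lists and the rule for named clones were chosen with earlier results of these data known. Named were Scamp2 and other SCAMP clones, every clone of the trafficking and solute lists, the 5 clones and the 3 clones with a symbol most correlated with Scamp2, and its neighbours in rank. Names came from a held part of the layout (336 described clones, 247 with a symbol, 206 of them matched to RefSeq); other clones were named by identifier. Alternatives were array centring, scaling, quality weights, dropped outliers, no dye term, direct arrays alone, a block, other variance estimates, arrays as replicates, a filter on residual SD, and single mice or arrays left out. With direct arrays alone, limma tested the knockout mice's mean ratios to wild type mice, without a wild type group. Figures were drawn with matplotlib 3.10.9 in Python 3.11.15.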

Additional observations from a re-analysis of the deposited data

How the results depend on the processing

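The direction of the Scamp2 difference was fixed by the choice of the clone, and its size cannot change when a same-genotype array or the dye term is left out, with direct arrays alone or under a block. It moved by more than the spread between mice in 2 alternatives, the direct arrays with the knockout in red (-0.67) and in green (-0.25), both chosen after seeing the data; in green, 24.1% of clones were lower. The share of clones with a lower difference was 4.65% without WT2, 11.6% without KO1 and 13.7% without WT3. The share with a larger absolute difference over its standard error, 1.93% as reported, ran from 1.14% to 8.45% over the mice and arrays left out. It was 4.93% with direct arrays alone, where the test and its standard error had no wild type group. The shares and list counts of that setting are therefore not like for like with the others. The gap ran from 0.12 to 0.38. The dye effect of Scamp2 ran from 0.05 to 0.17 and was not called in any alternative. Adjusted genotype calls were 0 in every alternative except with arrays as replicates (25), which treats repeat arrays of a mouse as independent; the unadjusted count ran from 980 (without WT2) to 1817. The Scamp4 difference ran from -0.29 to 0.17 over mice left out and from -0.21 to 0.07 over arrays left out, and reversed in 4 of 27 alternatives, none called. In the trafficking list the count at an unadjusted p under 0.05 rose from 0 to 1 (Cd63) with arrays scaled, with quality weights and with direct arrays alone, and was 0 to 1 with single arrays left out. In the solute list it was 2 with direct arrays alone and 0 among the 2 clones with a residual SD under the median. Mouse numbers gave no sign of a pairing. Deviations of same-numbered mice from their genotype mean correlated at -0.08, -0.24 and -0.04 over clones, and those of differently numbered mice at -0.26 to 0.34. The 3 deviations of a genotype sum to 0, which ties these correlations together, so they do not settle whether the mice were paired. With the number as a replicate block the Scamp2 difference is -0.46 by construction, 0 clones were called, and 4.74% of clones had a larger difference over its standard error. With 3 mice a genotype, and no intensities, differences near the spread between mice could not be resolved, and the cause of each change above was not tested.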
